A study of Homo sapiens with 2 samples.

Results

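WNT7A, WNT7B, WNT9A, DKK1 and SULF2 encode 3 secreted Wnt ligands, a secreted Wnt antagonist and an extracellular enzyme that edits heparan sulfate. They were taken by gene symbol from the authors' table of 1806 genes called different between a BRCA1-deficient ovarian cancer line and its partner with BRCA1, and all 5 had a row. They were selected on their FPKM values and fold changes in that table. The deficient line is UWB1.289, established from a serous carcinoma of the ovary, which the genotype label calls a BRCA1 knockout. The partner, labelled wild type, is the line titled UWBBRCA, with UWABRCA1 as its cell line label. Both lines were untreated and grown in the same serum-containing mix of RPMI and MEGM media, and the labels give 1 sample of total RNA for each. How the partner line was made and whether either line is a single clone are not stated in the labels. The series title concerns choline metabolism in the metastasis of BRCA1-deficient ovarian cancer.

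Wnt proteins are lipid-modified secreted signals that bind Frizzled receptors together with the co-receptors LRP5 or LRP6. In the canonical branch this stabilises beta-catenin, which then acts with TCF/LEF factors on target genes, whereas other branches signal through cell polarity or calcium. DKK1 binds LRP5 and LRP6 and blocks the canonical branch, and is itself a known target of beta-catenin. SULF2 removes sulfate groups from heparan sulfate chains at the cell surface, which changes how tightly Wnts and growth factors are held there. WNT7A is known for its part in patterning the Mullerian duct, from which the female reproductive tract forms.

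Levels are mean FPKM per line (fragments per kilobase of transcript, scaled to library size), as the authors deposited them. Neither the values behind each mean nor the read totals were used here, the depth is therefore unknown, and no spread or n stands beside any FPKM. No test across samples was possible with 1 deposited value per line. BRCA1 itself was lower in UWB1.289, at 5.63 FPKM, against 22.0 FPKM in UWBBRCA. Of 15 markers of serous ovarian epithelium 4 had a row (MUC16, CDH6, WT1 and FOLR1), 1 higher and 3 lower in UWB1.289, with a sum of 50.1 FPKM in UWB1.289 and 124.9 FPKM in UWBBRCA. None of the 4 was listed at 0, but WT1 was near 0 in both lines, at 0.013 FPKM in UWB1.289 and 0.155 FPKM in UWBBRCA. Markers of other cell types summed, over the 4 of 10 stromal markers with a row, to 11.1 FPKM in UWB1.289 and 100.1 FPKM in UWBBRCA. Most of this sum was COL1A2, at 10.5 FPKM in UWB1.289 and 97.3 FPKM in UWBBRCA. The 4 of 10 endothelial markers with a row summed to 54.4 FPKM in UWB1.289 and 16.5 FPKM in UWBBRCA. Of the stromal list, PDGFRA was listed at 0 in UWB1.289 and PDGFRB at 0 in UWBBRCA, and 0 of 10 leukocyte markers had a row. The part of these differences in the values below was not tested. In bulk RNA, fewer cells of a type and less RNA per cell cannot be told apart.

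The 3 ligands were all higher in BRCA1-deficient UWB1.289, with WNT7A the most abundant of them in both lines. WNT7A (ENSG00000154764, chromosome 3, 13816258 to 13880121, minus strand, GRCh38) had 30.6 FPKM in UWB1.289, against 6.41 FPKM in UWBBRCA, a ratio of 4.76. WNT7B, a close relative that acts with WNT7A in the vessels of the brain (ENSG00000188064, chromosome 22, 45920366 to 45977162, minus strand), had 9.72 FPKM in UWB1.289, against 3.46 FPKM in UWBBRCA, a ratio of 2.81. WNT9A, a ligand known from joint formation (ENSG00000143816, chromosome 1, 227918656 to 227947932, minus strand), had 3.52 FPKM in UWB1.289, against 0.823 FPKM in UWBBRCA, a ratio of 4.28. The order WNT7A, WNT7B, WNT9A therefore held in both lines. WNT7A was 3.14 times WNT7B in UWB1.289 and 1.85 times in UWBBRCA, and it was 8.68 times WNT9A in UWB1.289 and 7.79 times in UWBBRCA.

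The modulators differed by larger ratios than any of the 3 ligands. DKK1 (ENSG00000107984, chromosome 10, 52314281 to 52318042, plus strand) had 59.6 FPKM in UWB1.289, against 5.44 FPKM in UWBBRCA, a ratio of 11.0. SULF2 (ENSG00000196562, chromosome 20, 47639076 to 47786616, minus strand) had 8.79 FPKM in UWB1.289, against 0.141 FPKM in UWBBRCA, a ratio of 62.3. The ratio of SULF2 rests on a level near 0 in UWBBRCA, where the precision is unknown, so its size is uncertain. By FPKM among the 1806 listed genes, SULF2 stood at rank 454 in UWB1.289 and at rank 1516 in UWBBRCA. DKK1 stood at rank 52 in UWB1.289 and 581 in UWBBRCA, and WNT7A at rank 142 in UWB1.289 and 532 in UWBBRCA. From highest to lowest, the levels ran DKK1, WNT7A, WNT7B, SULF2, WNT9A in UWB1.289 and WNT7A, DKK1, WNT7B, WNT9A, SULF2 in UWBBRCA. With no spread, whether neighbours in these orders differ could not be tested.

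**Figure D1:**
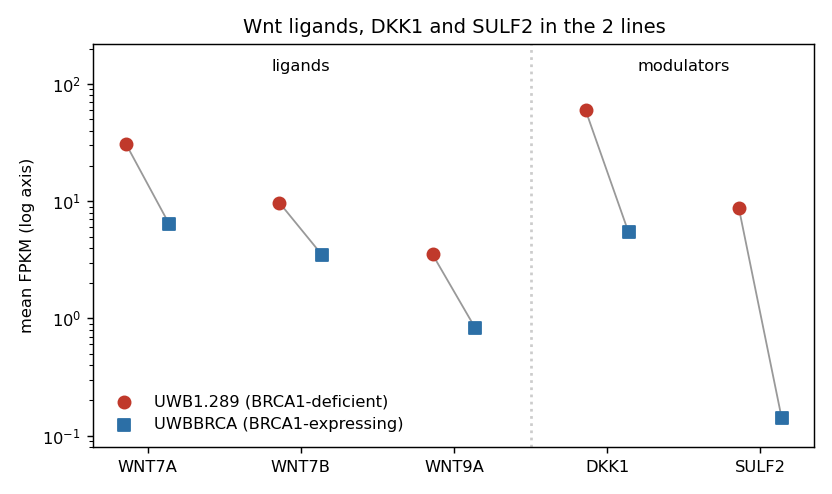
Mean FPKM (log axis) of the 3 ligands and the 2 modulators in BRCA1-deficient UWB1.289 (circles, left of each pair) and UWBBRCA (squares, right), 1 deposited mean per line with no error. All 5 genes were higher in UWB1.289, by 2.81 times for WNT7B up to 62.3 times for SULF2.

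As log2 ratios of FPKM + 1 with UWB1.289 on top, a scale that shrinks differences between low levels, the values were 3.24 for DKK1, 3.10 for SULF2, 2.09 for WNT7A, 1.31 for WNT9A and 1.26 for WNT7B. In the authors' deposited table the log2 fold change was 5.56 for SULF2, 3.49 for DKK1, 2.39 for WNT7A, 2.23 for WNT9A and 1.55 for WNT7B. The adjusted p in the authors' deposited table was 2.44e-28 for SULF2, 5.55e-18 for DKK1, 6.09e-08 for WNT7A, 7.09e-05 for WNT9A and 0.0012 for WNT7B. By p-value these were ranks 5, 31, 169, 411 and 688 of the 1806 listed genes. The rule took the members from this table, so these values are a description and not a test of the members. The p-values of the last gene in the table imply that 6.99% of 38868 features reached an adjusted p under 0.05. These are 2716 features, more than the 1806 genes with a row. Shares of list genes with a row, given below, are therefore not counted in the same way as the 6.99%. By the sign of the authors' fold, 5 of 5 members were higher, where 53.5% of listed genes were higher and 46.5% lower.

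By a rule of at least 2-fold on FPKM + 1, 5 of 5 members were higher, where 25.3% of the 1806 listed genes passed this rule upward and 22.5% downward. At 4-fold, DKK1, SULF2 and WNT7A were higher, where 2.77% of listed genes were. Nothing is read from these shares, since the same contrast chose the members. The 457 higher and 406 lower genes of the 2-fold rule became 198 and 542 when both columns were brought to equal totals, and 86 and 608 after centring on the median ratio over genes of at least 1 FPKM in each line. Centring shifted UWB1.289 against UWBBRCA by -1.01 on the log2 scale, which moved the median of all listed genes on log2(FPKM + 1) by -0.21. Equal totals shifted UWB1.289 against UWBBRCA by -0.43 on the log2 scale. Both rescalings use called genes only. All 5 members stayed higher in UWB1.289 under them, but WNT7B fell short of 2-fold with equal totals, at 0.90, and after centring WNT7B at 0.41 and WNT9A at 0.68 did.

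**Figure D2:**
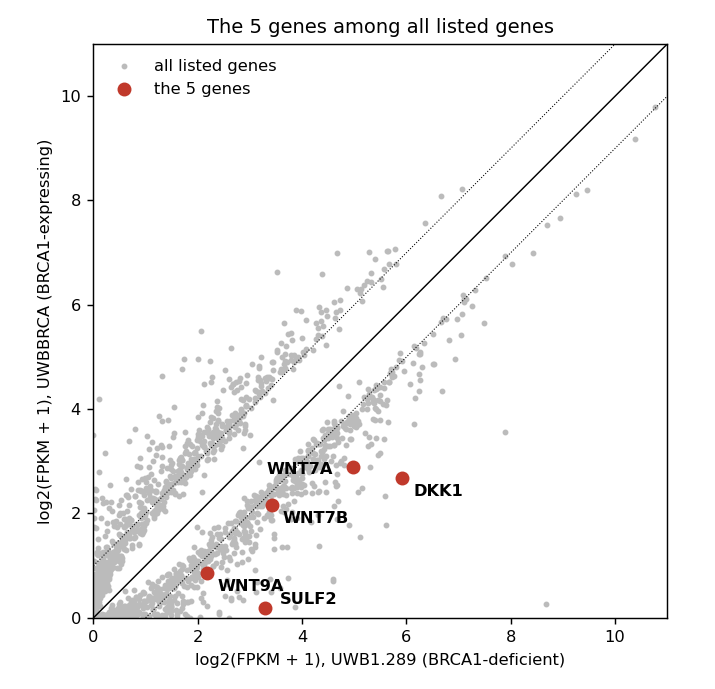
Each grey point is 1 of the 1806 listed genes by log2(FPKM + 1) in BRCA1-deficient UWB1.289 (horizontal) and UWBBRCA (vertical), with equality as a solid line and 2-fold as dotted lines. The 5 genes lie below the lower 2-fold line, with SULF2 near 0 on the vertical axis and DKK1 furthest right.

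The ratio of antagonist to ligand within a line does not depend on how the columns are scaled. The 3 ligands summed to 43.8 FPKM in UWB1.289 and 10.7 FPKM in UWBBRCA, a ratio of 4.09. DKK1 was 1.36 times this sum in UWB1.289 and 0.508 times in UWBBRCA. The balance of DKK1 to the 3 ligands was therefore 2.68 times higher in UWB1.289, 1.42 on the log2 scale, as a description of RNA levels in these libraries. DKK1 and the 3 ligands were chosen on these values, so this balance is no test of a shift. Other Wnt ligands and antagonists are not part of it. WNT7A made up 69.8% of the 3-ligand sum in UWB1.289 and 60.0% in UWBBRCA, and WNT7B made up 22.2% in UWB1.289 and 32.4% in UWBBRCA. WNT9A held nearly the same share, 8.04% in UWB1.289 and 7.69% in UWBBRCA.

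Among the other Wnt ligands with a row, WNT5A and WNT5B went the other way. WNT5A and WNT5B, ligands best known for signalling outside the canonical branch, were both lower in UWB1.289. WNT5A had 0.869 FPKM in UWB1.289, against 3.01 FPKM in UWBBRCA, and WNT5B had 0.146 FPKM in UWB1.289, against 1.28 FPKM in UWBBRCA. WNT8B, a ligand of the developing forebrain, was under 1 FPKM in both lines, at 0.338 FPKM in UWB1.289 and 0.0819 FPKM in UWBBRCA. Log2 fold changes in the authors' deposited table were -1.78 for WNT5A, -2.30 for WNT5B and 2.07 for WNT8B, with adjusted p of 0.000179, 0.0211 and 0.0159. Of 19 human Wnt ligands 6 had a row (31.6%, where 6.99% of all features had an adjusted p under 0.05), 4 higher and 2 lower. WNT7A, WNT7B and WNT9A, chosen from the table, are among the 6, so nothing is read from this share. The remaining 13 were not analysed here. WNT5A and WNT5B together made up 2.25% of the summed FPKM of these 6 in UWB1.289 and 28.5% in UWBBRCA. WNT7A made up 67.7% of that sum in UWB1.289 and 42.6% in UWBBRCA.

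SULF1 and SULF2, which share the same enzymatic activity on heparan sulfate, also went opposite ways. SULF1 had 0.0449 FPKM in UWB1.289, against 1.32 FPKM in UWBBRCA, with a log2 fold change of -4.31 (adjusted p 4.03e-08) in the authors' deposited table. SULF2 thus made up 99.5% of the summed FPKM of the pair in UWB1.289 and 9.65% in UWBBRCA. The sum of both was 8.83 FPKM in UWB1.289 and 1.46 FPKM in UWBBRCA, a ratio of 6.05. SULF1 in UWB1.289 and SULF2 in UWBBRCA (0.141 FPKM) were near 0, so the precision of the shares is unknown.

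**Figure D3:**
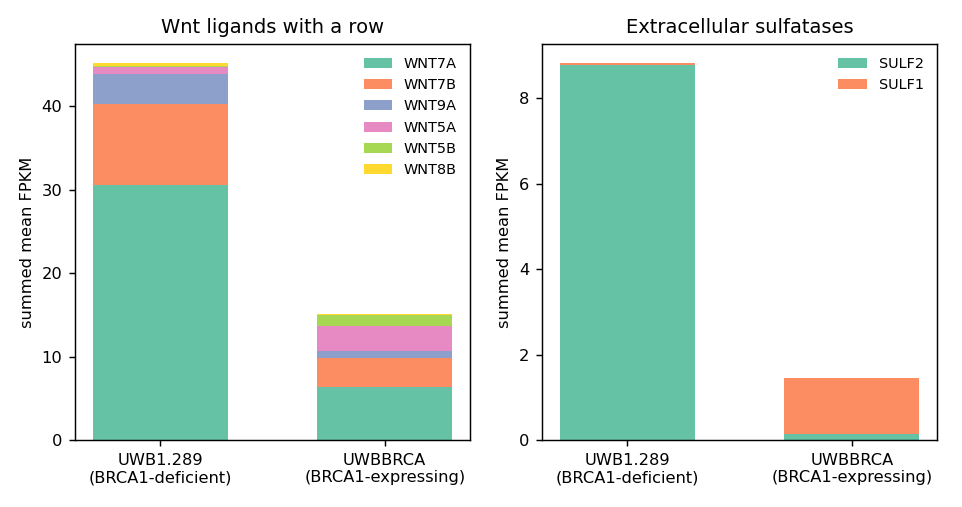
Stacked bars of mean FPKM in BRCA1-deficient UWB1.289 (left bar) and UWBBRCA (right bar) for the 6 Wnt ligands with a row (left panel) and for SULF2 and SULF1 (right panel). WNT5A and WNT5B take 28.5% of the ligand sum in UWBBRCA and 2.25% in UWB1.289, and SULF2 takes 99.5% of the sulfatase sum in UWB1.289 and 9.65% in UWBBRCA.

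Receptors and co-receptors had 3 of 18 genes in the table (16.7%, where 6.99% of all features had an adjusted p under 0.05), and both of those above 1 FPKM were lower in UWB1.289. LRP6, the co-receptor that DKK1 binds, had 7.17 FPKM in UWB1.289, against 28.0 FPKM in UWBBRCA. RECK, a membrane-anchored protein that with ADGRA2 serves as co-receptor for WNT7A and WNT7B, had 1.58 FPKM in UWB1.289, against 4.41 FPKM in UWBBRCA. FZD9, a Frizzled receptor, was under 1 FPKM in both lines, at 0.759 FPKM in UWB1.289 and 0.178 FPKM in UWBBRCA. In the authors' deposited table the log2 fold changes were -1.82 for LRP6 (adjusted p 2.59e-05), -1.50 for RECK (0.00303) and 2.25 for FZD9 (0.00649). The other 15, ADGRA2 and LRP5 among them, were not analysed here. LRP6 and WNT5B both lie on chromosome 12, at 12116025 to 12267044 and 1529891 to 1647212, and RECK on chromosome 9, at 36036913 to 36124455.

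The list of secreted and surface antagonists held 2 of 19 genes with a row (10.5%, where 6.99% of all features had an adjusted p under 0.05). They were DKK1, chosen from the table, and DKK2, both higher in UWB1.289, as were 53.5% of listed genes. DKK2, a relative of DKK1, was listed at 0 in UWBBRCA and had 0.0822 FPKM in UWB1.289, so no fold is given for it. The R-spondin module had 1 of 9 genes in the table (11.1%, where 6.99% of all features had an adjusted p under 0.05). It was LGR6, an R-spondin receptor, at 1.43 FPKM in UWB1.289 and 0.458 FPKM in UWBBRCA. The intracellular relay had 1 of 29 (3.45%, below the 6.99%). It was APC2, a relative of the APC tumour suppressor, at 0.455 FPKM in UWB1.289 and 0.154 FPKM in UWBBRCA. CTNNB1, AXIN2, TCF7 and LEF1 are among the 28 relay genes not analysed here. The polarity and calcium list had 1 of 16 genes with a row (6.25%, near the 6.99%). It was NFATC2, a transcription factor of the calcium branch, at 4.07 FPKM in UWB1.289 and 1.55 FPKM in UWBBRCA. Of 2 genes of Wnt secretion 0 had a row.

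Of 18 genes known as targets of beta-catenin 3 had a row (16.7%, where 6.99% of all features had an adjusted p under 0.05). These 3 were higher in UWB1.289, as were 53.5% of listed genes. DKK1 is among the 3 and was chosen from the table, so nothing is read from this share. The growth regulator MYC had 10.9 FPKM in UWB1.289, against 4.60 FPKM in UWBBRCA. FOSL1, an AP-1 subunit, had 6.41 FPKM in UWB1.289, against 2.17 FPKM in UWBBRCA. The log2 difference on FPKM + 1 was 1.09 for MYC and 1.22 for FOSL1, but both fell short of 2-fold with equal totals (0.71 for MYC and 0.89 for FOSL1) and after centring (0.21 for MYC and 0.44 for FOSL1). Both genes are also targets of other pathways. Log2 fold changes in the authors' deposited table were 1.39 for MYC (adjusted p 0.00466) and 1.65 for FOSL1 (0.0104). AXIN2, LGR5, NKD1, SP5, RNF43, ZNRF3 and NOTUM, of the same list, were not analysed here.

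The enzymes and core proteins of heparan sulfate gave no common direction. Of 25 genes of its synthesis and editing 5 had a row (20%, where 6.99% of all features had an adjusted p under 0.05), 2 higher and 3 lower. SULF2, chosen from the table, is among the 5. HS3ST2, which adds sulfate to the chains, had 0.749 FPKM in UWB1.289, against 0.0183 FPKM in UWBBRCA. EXTL2, a glycosyltransferase of the exostosin family, had 3.16 FPKM in UWB1.289, against 7.63 FPKM in UWBBRCA. HS6ST3, which adds the kind of sulfate that SULF2 removes, was near 0 in both lines, at 0.0056 FPKM in UWB1.289 and 0.126 FPKM in UWBBRCA. GPC1, a glypican core protein that carries the chains, had 1.07 FPKM in UWB1.289 and 0.615 FPKM in UWBBRCA, a log2 difference of 0.36 on FPKM + 1 that turned to -0.095 after centring. It was the single gene with a row of 13 core proteins (7.69%, near the 6.99% of all features).

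Across all lists, 22 of 158 genes had a row, which is 13.9%, where 6.99% of all 38868 features had an adjusted p under 0.05. The 6.99% stands for 2716 features, more than the 1806 with a row, so nothing is read from setting these shares side by side. The 5 members, chosen from the table, are among the 22. Of these 15 were higher and 7 lower, and their median log2 difference was 0.47 on FPKM + 1. Over all 1806 listed genes 53.5% were higher, and the median was 0.20. Without the 5 members, 17 of 153 list genes had a row, which is 11.1%. Of these 17, 10 were higher and 7 lower, which is 58.8% higher, and their median was 0.31. By the 2-fold rule on FPKM + 1, 2 of these 17 were higher (MYC and FOSL1) and 5 lower (LRP6, SULF1, WNT5A, RECK and EXTL2). Under either rescaling, equal totals or centring, 0 of the 17 were at least 2-fold higher and 6 lower, with WNT5B added. These lists were chosen with earlier results of the same data known.

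**Figure D4:**
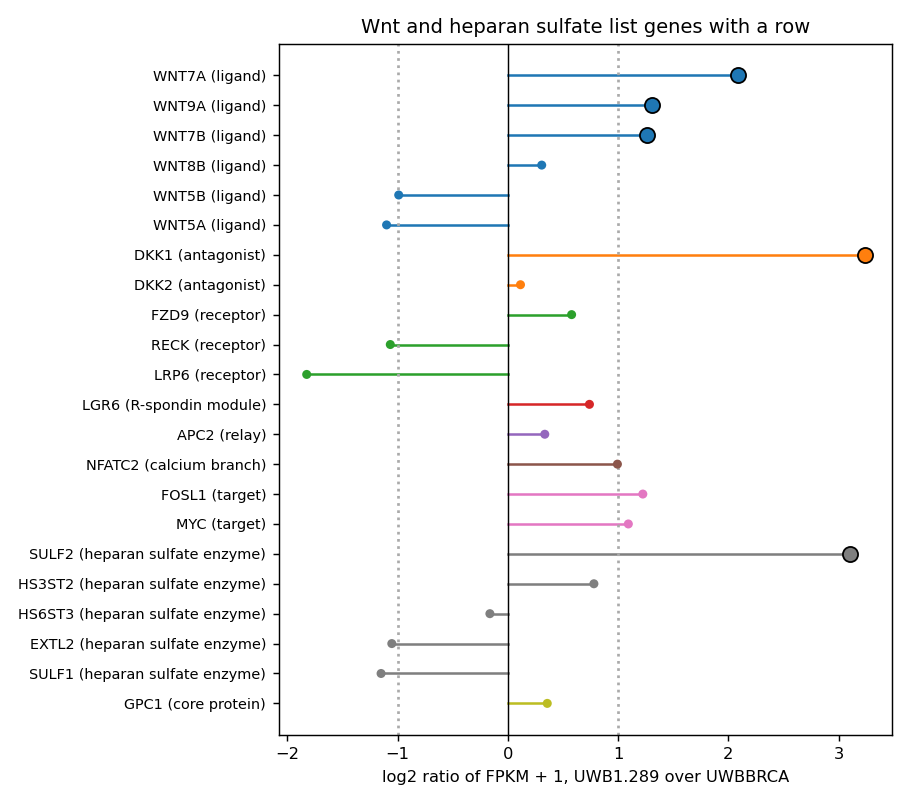
Log2 ratio of FPKM + 1, UWB1.289 over UWBBRCA, for the 22 list genes with a row, coloured by role, with the 5 genes as large outlined points and 2-fold as dotted lines. DKK1 at 3.24 and SULF2 at 3.10 lie furthest right, and LRP6 at -1.83 lies furthest left.

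Promoter sequences are shown for the members, which lie on separate chromosomes. The members were chosen on their values in this contrast, so their common direction is no sign of shared regulation. RefSeq sequences (GRCh38.p14) matched 4 of the 5 by symbol, and WNT7B had no entry. For SULF2, which has 4 starts in RefSeq, the start nearest to the end of the deposited locus was used. The RefSeq start of WNT7A lies 50 bases inside its deposited locus. Each line gives the 250 bases before the start, 5′ to 3′ on the gene's strand, at chr3:13880072-13880321 (minus strand) for WNT7A, chr1:227947933-227948182 (minus) for WNT9A, chr10:52314031-52314280 (plus) for DKK1 and chr20:47786628-47786877 (minus) for SULF2. Capitals mark matches on either strand to the GC box GGGCGG, the TATA box TATAAA and the TCF/LEF words CTTTGAA (or its variants CTTTGAT as well as CTTTGTA and also CTTTGTT).
WNT7A: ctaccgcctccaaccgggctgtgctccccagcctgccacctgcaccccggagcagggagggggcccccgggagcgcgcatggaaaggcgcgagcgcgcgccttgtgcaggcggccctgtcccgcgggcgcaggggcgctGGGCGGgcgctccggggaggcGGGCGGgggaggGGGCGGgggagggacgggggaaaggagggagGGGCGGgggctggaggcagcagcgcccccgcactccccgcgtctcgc
WNT9A: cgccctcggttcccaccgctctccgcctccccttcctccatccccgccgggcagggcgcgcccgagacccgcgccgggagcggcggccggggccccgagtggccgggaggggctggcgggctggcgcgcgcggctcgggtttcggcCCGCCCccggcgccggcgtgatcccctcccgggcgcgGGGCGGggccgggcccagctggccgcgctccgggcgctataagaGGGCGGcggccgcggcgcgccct
DKK1: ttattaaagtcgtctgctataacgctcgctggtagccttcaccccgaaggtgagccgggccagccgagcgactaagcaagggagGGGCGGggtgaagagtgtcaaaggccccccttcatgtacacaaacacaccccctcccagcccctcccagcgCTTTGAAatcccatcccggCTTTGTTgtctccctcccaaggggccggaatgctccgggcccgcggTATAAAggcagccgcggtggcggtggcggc
SULF2: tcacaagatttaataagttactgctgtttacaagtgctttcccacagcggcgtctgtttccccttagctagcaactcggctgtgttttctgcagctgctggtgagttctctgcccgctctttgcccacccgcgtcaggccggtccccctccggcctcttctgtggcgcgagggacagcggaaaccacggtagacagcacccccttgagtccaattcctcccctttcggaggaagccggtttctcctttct

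No motif searched for was in all 4 promoters. WNT7A held 4 GC boxes and WNT9A 3, in windows of 80.4% and 84.4% GC, while DKK1 held 1 in a window of 62.8% GC and SULF2 held 0 at 56.8% GC. The median GC content of the same window over 35116 RefSeq promoters was 58%, and 42.6% of them held a GC box. Of the 4 promoters only that of DKK1 held TCF/LEF words, CTTTGAA beginning at -95 and CTTTGTT at -76 relative to the start, where 12.0% of promoters held at least 1 of the 4 words. It was also the only promoter of the 4 with a TATA box, at -30, where 10.7% of promoters held one. The AP-1 word TGANTCA and the E-box CACGTG, in 6.57% and 6.34% of promoters, were in 0 of the 4 windows, and no marked sites overlapped. These are matches of letters, not measured binding sites.

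Of the members, WNT7A had the most listed genes close to it. Within 1 megabase of WNT7A, 5 genes had a row, with 16 protein-coding genes annotated there by GENCODE release 29. Over all features, 6.99% had an adjusted p under 0.05, a share counted in another way, so nothing is read from this number. All 5 were higher in UWB1.289, where 53.5% of listed genes were higher. Whether this differs from other loci was not tested. TMEM43, a nuclear envelope protein, had 23.5 FPKM in UWB1.289, against 10.2 FPKM in UWBBRCA, and CHCHD4, a mitochondrial import factor, had 12.1 FPKM in UWB1.289, against 5.72 FPKM in UWBBRCA. IQSEC1, an exchange factor for ARF GTPases, had 8.89 FPKM in UWB1.289, against 3.62 FPKM in UWBBRCA, and FBLN2, the matrix protein fibulin, had 2.83 FPKM in UWB1.289, against 1.14 FPKM in UWBBRCA. After centring, the log2 difference on FPKM + 1 was 0.18 for TMEM43, 0.064 for CHCHD4, 0.24 for IQSEC1 and 0.19 for FBLN2. CAND2 was under 1 FPKM in both lines, at 0.407 FPKM in UWB1.289 and 0.207 FPKM in UWBBRCA, and its log2 difference of 0.22 on FPKM + 1 turned to -0.0081 after centring. By the same window, WNT7B had 1 listed neighbour among 20 annotated coding genes. This was PHF21B, which was higher, at 0.558 FPKM in UWB1.289 and 0.0437 FPKM in UWBBRCA. SULF2 had 1 among 7, EYA2, a transcriptional coactivator, which was lower, at 0.348 FPKM in UWB1.289 and 2.62 FPKM in UWBBRCA. DKK1 had 0 listed neighbours among 3 annotated coding genes.

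The genes nearest to each member in level were found by the distance between log2(FPKM + 1) values in the 2 lines, among listed genes at 1 FPKM or more in either. For SULF2 they were OAF at 9.53 FPKM in UWB1.289 and 0.416 FPKM in UWBBRCA, and FGFBP1, a carrier of fibroblast growth factors, at 7.70 FPKM in UWB1.289 and 0.405 FPKM in UWBBRCA, at distances of 0.33 and 0.35. For DKK1 they were HIST1H4F, a histone gene, and PDZK1IP1, at 0.49 and 0.62. For WNT7A they were the interferon-induced IFITM1 and the neuronal filament gene INA, at 0.19 and 0.24. For WNT9A they were TMIE and CPED1, at 0.08 and 0.11, and for WNT7B they were DUS3L, a tRNA-modifying enzyme, and RABGGTA, a subunit of an enzyme that lipid-modifies Rab proteins, at 0.02 and 0.06. With 2 values a gene, such likeness says only that the levels were close.

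Stretches shared between transcripts bear on how reads are assigned. The longest identical run between the longest coding transcripts was 30 bases for WNT7A and WNT7B, 38 for WNT7A and WNT9A and 20 for WNT7B and WNT9A. The deposited locus of SULF2 reaches past its GENCODE end at 47656348 and overlaps the end of NCOA3 on the opposite strand, as well as an antisense gene within it, and DKK1 overlaps the start of PRKG1-AS1 on the opposite strand. The libraries were strand-specific per the labels, but no label says whether counting used the strand, so reads of these overlaps cannot be told apart. WNT9A holds the microRNA gene MIR5008 on its own strand, and WNT7A and WNT7B overlap no annotated gene.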

How the data were processed

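RNA of 2 human cell lines was sequenced from ribosomal RNA-depleted, strand-specific libraries, per the labels' protocols. The authors deposited a table of genes with a mean FPKM per line, a log2 fold change, a p-value and an adjusted p-value, per the file headers. Multiplied by 3, every FPKM came out whole at the last of 6 decimals (tolerance 0.02 of that decimal), so the values look like means of 3, while the labels give 1 sample per line. HISAT2, StringTie 1.3.3b and the mouse build mm9 are named in the submitters' processing notes. The gene IDs are human and the loci were read as GRCh38, with 1799 of 1806 IDs in GENCODE release 29. No header or label names the test behind the p-values, whose adjustment matches Benjamini-Hochberg over 38868 features.

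Differences are UWB1.289 minus UWBBRCA in log2(FPKM + 1), and counts use a 2-fold rule. No test was run. Markers were planned as counts only, but some are also named, with levels for WT1, CDH6, MUC16 and COL1A2. Genes named by rule are the 5 members and every gene of the Wnt and heparan sulfate lists with a row. The rule adds 2 nearest genes per member and listed genes within 1 megabase. A gene that this rule selects is not reported here. The members and lists were chosen with earlier results of these data known. The alternatives tried were a pseudocount of 0.1 or 0.01, columns brought to equal totals, centring, a minimum of 1 FPKM, an adjusted p of at most 0.01, a 4-fold rule and the authors' fold. Those of the DKK1 to ligand balance were chosen after seeing the data. The counting and motif search were tested on simulated data. Python 3.11.15, numpy 2.4.6, pandas 2.3.3 and matplotlib 3.10.9 were used.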

Additional observations from a re-analysis of the deposited data

How the results depend on the processing

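All 5 members stayed higher in UWB1.289 with equal totals and after centring, the alternatives that could have turned their sign. A pseudocount cannot turn a sign, and the members were selected on the authors' fold changes. The size of the difference depended on the pseudocount and the scaling, and no spread was available to judge these shifts. With a pseudocount of 0.1 FPKM the log2 difference was 2.23 for WNT7A, 1.46 for WNT7B, 1.97 for WNT9A, 3.43 for DKK1 and 5.20 for SULF2. With 0.01 FPKM it was 2.25, 1.49, 2.08, 3.45 and 5.86 in the same order of genes. With equal totals it was 1.69, 0.90, 1.04, 2.84 and 2.88, and after centring 1.16, 0.41, 0.68, 2.31 and 2.58. The authors' log2 fold changes were 2.39, 1.55, 2.23, 3.49 and 5.56. DKK1 over the ligand sum was 1.87 on the log2 scale with all 6 listed ligands in the sum, against 1.42 with 3, and by construction was the same after rescaling.

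The listed genes at least 2-fold higher numbered 840 and 896 with pseudocounts of 0.1 and 0.01 FPKM, 198 with equal totals, 86 after centring and 50 by the 4-fold rule, and those lower 756, 812 and, by the 4-fold rule, 42. Of the Wnt and heparan sulfate list genes, 13 and 14 were higher with pseudocounts of 0.1 and 0.01 FPKM, 4 with equal totals, 3 after centring and 3 by the 4-fold rule, which left 0 lower. Their median was 1.25 and 1.50 with pseudocounts of 0.1 and 0.01 FPKM, 0.35 with equal totals, 0.18 after centring, 0.87 over genes of at least 1 FPKM in a line and 0.76 at an adjusted p of at most 0.01. GPC1 (-0.095) and CAND2 (-0.0081) turned lower after centring. No paired analysis was possible because each group has 1 sample. A table of called genes cannot show which pathway genes stayed the same, and without read totals the precision of low levels, such as SULF2 and SULF1 where they were near 0, is unknown.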
